A study of Mus musculus with 6 samples.

Results

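The genes described here make bile acids in the hepatocyte and move them across its membranes. They are 31 mouse genes: enzymes of bile acid synthesis, ABC and SLC transporters, and the receptors and repressor of the farnesoid X receptor (FXR) and FGFR4 pathways. They were taken by name from the 18193 genes for which the array platform annotation lists at least 1 probe set with a single gene symbol. All 31 had such a probe set. Where a gene had several, the one with the highest mean over all 6 arrays was used. Every gene was then required to have 3 or more arrays at a log2 level of 4 or above. All 31 met this, as did 10009 genes in total.

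Liver RNA came from 6 male C57BL/6 mice aged 6 weeks, each on its own Affymetrix array. The KO group was 3 mice with a conditional knockout of p14 in the liver (KO 1 to KO 3). The WT group was 3 control mice labelled p14 WT (WT 1 to WT 3). The Cre driver and whether controls carried floxed alleles or Cre are not given in the sources used here. p14, encoded by Lamtor2, is an adaptor protein of late endosomes and part of the Ragulator complex. The labels number the mice of each group as biological replicates. Values are the authors' log2 expression levels, and every difference is KO minus WT on that scale.

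Bile acids are made from cholesterol in hepatocytes. In the classical route CYP7A1 makes the first and rate-limiting step. The alternative route begins with CYP27A1 and continues with CYP7B1, and CYP8B1 sets how much cholic acid is formed. The products are conjugated to taurine or glycine by SLC27A5 and BAAT and pumped into the bile canaliculus by ABCB11. FXR, encoded by Nr1h4, senses bile acids. It induces the repressor SHP (Nr0b2) and ABCB11, while FGF15 from the ileum acts on hepatocytes through FGFR4 and its partner beta-Klotho (Klb) to lower Cyp7a1 transcription.

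Promoter sequence from RefSeq (build GRCm38.p6) was found for 21 of the 31 genes. The other 10, among them Cyp7a1, Amacr, Cyp39a1 and Cyp7b1, had no promoter window and were not searched. The stretches printed here belong to Nr0b2 and Cyp8b1, which were both highest on KO 1 and KO 2, to the FXR target Abcb11, which was lower on every KO array, and to Abcg5 and Abcg8, which share an intergenic region and ranked the arrays in nearly the same order. The first 3 are the 250 bases before the annotated start, on the gene's strand: Nr0b2 at chr4:133553126-133553375 (plus strand), Cyp8b1 at chr9:121916306-121916555 (minus strand) and Abcb11 at chr2:69342617-69342866 (minus strand). The last is the whole 109 bases between a divergent pair of annotated starts, of Abcg5 (minus strand) and Abcg8 (plus strand), at chr17:84683012-84683120, given on the plus strand. Capitals mark matches, on either strand, to CAAGGNCA and to the TATA box TATAAA in Nr0b2, Cyp8b1 and the Abcg5/Abcg8 region, and to GGNCANTGNCC in Abcb11. In the last region the capitals are TATAAA read on the minus strand.
Nr0b2: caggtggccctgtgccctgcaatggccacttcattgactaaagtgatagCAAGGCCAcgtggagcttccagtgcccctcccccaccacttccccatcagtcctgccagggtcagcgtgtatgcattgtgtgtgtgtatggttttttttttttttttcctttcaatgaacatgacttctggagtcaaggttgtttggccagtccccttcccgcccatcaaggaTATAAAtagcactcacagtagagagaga
Cyp8b1: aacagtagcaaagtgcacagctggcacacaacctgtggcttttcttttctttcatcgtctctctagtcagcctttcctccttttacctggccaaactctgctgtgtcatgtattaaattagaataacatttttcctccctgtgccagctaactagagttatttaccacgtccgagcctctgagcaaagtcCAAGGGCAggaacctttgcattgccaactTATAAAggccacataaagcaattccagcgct
Abcb11: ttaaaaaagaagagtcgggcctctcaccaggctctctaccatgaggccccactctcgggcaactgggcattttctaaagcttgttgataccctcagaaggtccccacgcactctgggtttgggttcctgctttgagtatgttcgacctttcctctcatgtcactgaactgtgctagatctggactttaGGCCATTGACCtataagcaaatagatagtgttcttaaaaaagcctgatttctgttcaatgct
Abcg5/Abcg8: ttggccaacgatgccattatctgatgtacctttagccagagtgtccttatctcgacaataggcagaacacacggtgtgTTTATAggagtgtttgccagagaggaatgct

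CAAGGNCA is the core of the site bound by LRH-1, a nuclear receptor that acts on bile acid genes. It lay 201 to 194 bases before the start of Nr0b2 and 60 to 53 bases before that of Cyp8b1. It is present in 5.53% of the 32851 promoter windows of this length. Among the 21 listed genes with a window, Abcg2 also had it. GGNCANTGNCC is a relaxed form of the inverted repeat to which FXR binds. Abcb11 holds it 62 to 52 bases before its start, against 0.575% of all windows. TATAAA was in 12.4% of all windows and, among the listed genes, in those of Nr0b2, Cyp8b1, Abcg5, Abcg8 and Slc10a1. These patterns were chosen after their matches were seen, from 14 that were searched, and 6 of the 14 matched a window of a listed gene. The other 3 with a match were AAGGTCA in Abcc2, Abcg2 and Slc27a2 (4.08% of all windows), GGNCANTGANC in the same stretch of Abcb11 (0.935%) and TATAAATA in Nr0b2 (1.56%). None of the 21 listed genes with a window matched the full FXR repeat AGGTCANTGACCT (0.00609% of all windows) or its short form GGTCANTGA (0.731%). The direct repeats AGGTCANAGGTCA (0.0335%), AGGNCANAGGNCA (0.338%) and GGTCANAGGTCA (0.0609%) had no match there either. The same holds for CAAAGGTCA (0.426%) and for the palindromes GTTAATNATTAAC (0.00913%) and TTAATNATTAA (0.116%). Several of these patterns contain or overlap each other. A match describes the letters only, and its choice after the search means that it supports nothing about the genes.

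Before the results, 2 arrays need naming. KO 3 lay at -2.58 on the first principal component, between the other KO arrays at -30.39 and -22.27 and the WT arrays at 14.19 to 21.55. WT 2 carried skeletal muscle transcripts, with Acta1 at 13.72 against 2.32 to 3.25 on the other 5 arrays. The liver label was checked against markers: the 6 hepatocyte markers lay between 14.51 and 16.28 on all arrays. Of the 5 cholangiocyte markers measured, Krt7, Krt19, Sox9 and Cftr were below 4 on every array, and Epcam lay between 4.11 and 4.22 in KO and between 3.82 and 4.28 in WT. Lamtor2, the targeted gene, measured 10.08, 10.19 and 10.11 in KO against 11.32, 11.29 and 11.35 in WT. Of the acute-phase markers, Saa1, Saa2, Lcn2, Orm2 and Hp were highest on KO 1 and KO 2, while Fgb was highest on KO 3. Saa1 was 15.83, 15.78 and 12.22 on KO 1 to KO 3, against 12.03, 11.67 and 10.83 on WT 1 to WT 3. The probe set of Saa1 is of the kind that can match several transcripts. All 7 Kupffer cell and macrophage markers were lower in KO means, with a log2 summed signal of 12.79 to 13.77 in KO and 13.99 to 14.06 in WT. Of the 6 endothelium markers 5 were lower in KO means, with a summed signal of 12.23 to 12.69 in KO and 12.48 to 12.82 in WT. Lyve1 among them was called (difference -1.32, limma adjusted p = 0.0353). Of the 5 stellate cell markers tested 4 were lower, with a summed signal over the 6 measured of 13.21 to 13.65 in KO and 13.59 to 14.06 in WT. The controls for 18S rRNA were 0.80 higher in KO. In a bulk sample, fewer cells of a type and less RNA per cell cannot be told apart. The part these differences play in the values that follow was not tested.

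The comparison of KO with WT livers asks which transcripts differ in livers with a conditional knockout of p14, where Lamtor2 signal was lower but still measured. Among the bile acid genes whose groups did not overlap, the largest differences were those of Amacr, higher on all KO arrays, and of Cyp7a1 and Cyp39a1, lower on all KO arrays. The conjugation enzymes and the uptake carrier Slc10a1 had differences close to 0. A gene was called where its limma p, adjusted by Benjamini-Hochberg over all genes, was under 0.05. By this rule 0 of the 31 genes was called, where 0.17% of all genes were, and the smallest adjusted p was 0.242. The number called over all genes was 17, and it ran from 1 to 140 when 1 array was left out (140 without KO 3, and 1 without KO 2, WT 1 or WT 2). At an unadjusted limma p under 0.05 there were 8 of the 31, 3 higher and 5 lower in KO, where 14.5% of all genes were at that level.

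The groups did not overlap for 10 of the 31 genes (32.3%), against 20.5% of all genes tested. In 6 of them every KO array was above every WT array, where 6.54% of all genes were, and in 4 every KO array was below, where 14% were. For each of the 10 the exact two-sided permutation p was 0.1, the smallest that 3 against 3 arrays can give. Means were higher in KO for 17 genes and lower for 14, with a median difference of 0.03 against -0.04 over all genes. Of the 14, 4 that lay near 0 (Cyp27a1, Hsd3b7, Slc27a5 and Abcc3) turned positive when each array was centred on its median. A difference of at least 0.5 in either direction was seen for 8 genes (25.8%), against 9.11% of all genes. The 31 genes were chosen with earlier results of these data known. Shares above those of all genes are therefore no evidence of a change in the set. By role, differences of at least 0.5 were seen for 4 of 5 hydroxylases and for 1 of 8 genes of the later synthesis steps. They were seen for 0 of 8 canalicular genes, 2 of 6 sinusoidal and basolateral genes and 1 of 4 control genes. Each role holds few genes and 0 were called, so no pattern over the pathway is shown. The plot of differences groups the genes by role.

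**Figure D1:**
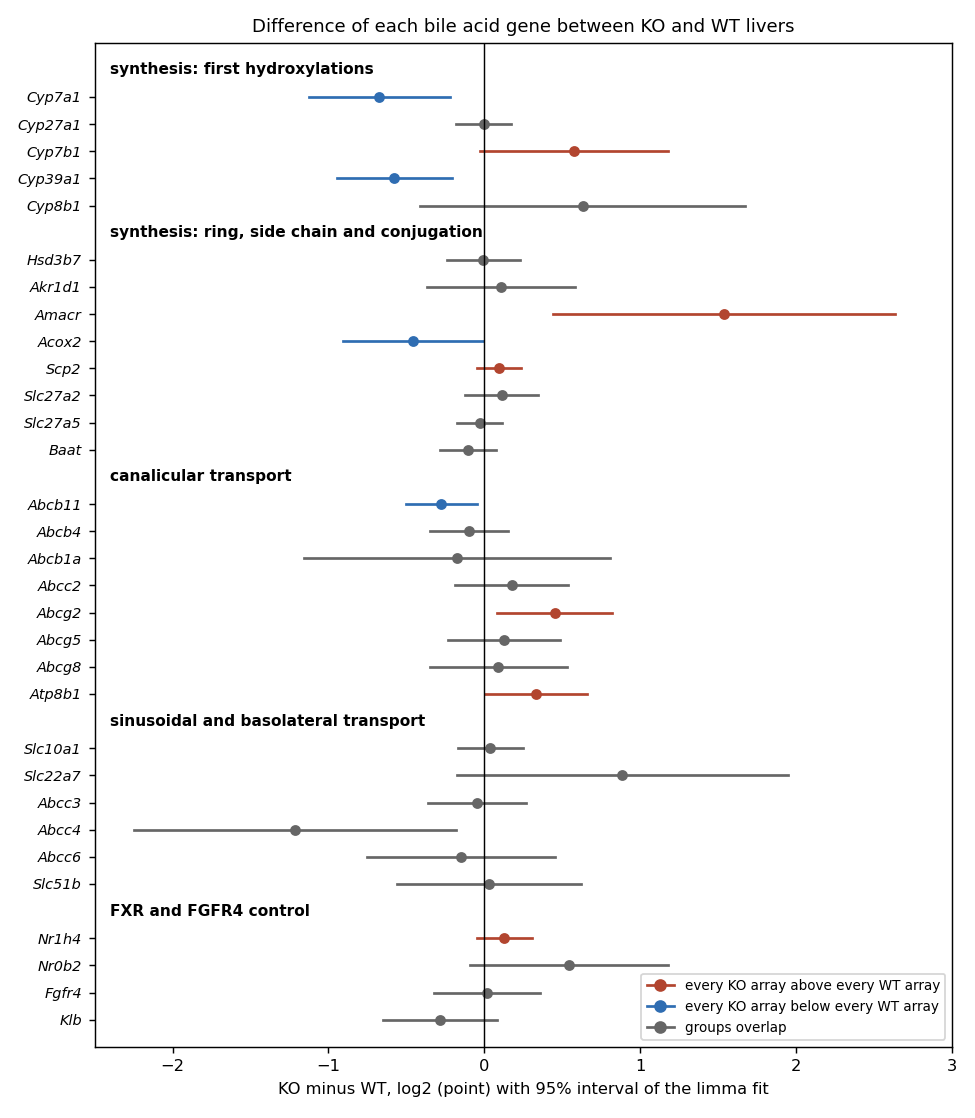
Difference between KO and WT livers for each of the 31 bile acid genes (log2, KO minus WT, point) with its 95% interval from limma, grouped by role. Red marks the 6 genes with every KO array above every WT array, blue the 4 with every KO array below, and grey the genes whose groups overlap; Amacr at 1.53 and Abcc4 at -1.21 lie furthest from 0.

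The hydroxylases of bile acid synthesis differed among themselves. Cyp7a1, the rate-limiting enzyme of the classical route, measured 12.89, 13.07 and 12.87 on the KO arrays, against 13.94, 13.25 and 13.65 on the WT arrays. All KO values were below all WT values, with a gap of 0.19 between the nearest arrays, KO 2 and WT 2. The difference was -0.67 (95% interval -1.13 to -0.22), which puts the KO signal at 62.7% of that in WT (limma adjusted p = 0.2498). A dimmer probe set of Cyp7a1 differed by -0.24, and its groups overlapped, with 11.31, 11.56 and 11.36 in KO and 11.90, 11.57 and 11.47 in WT. Both probe sets of Cyp7a1 were lower in the KO mean, by different amounts.

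Cyp39a1, an oxysterol hydroxylase, followed the same pattern. It measured 10.77, 10.85 and 10.72 in KO and 11.63, 11.36 and 11.07 in WT. The KO arrays lay close together and below every WT array, while the WT arrays were spread. Its difference of -0.58 (95% interval -0.95 to -0.21) had the smallest p of the 31 genes and ranked 364th among the 10009 (limma adjusted p = 0.242).

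Cyp7b1 and Cyp8b1 went the other way in their means. Cyp7b1, the oxysterol hydroxylase of the alternative route, measured 10.86, 10.45 and 9.89 in KO against 9.77, 9.85 and 9.87 in WT. KO 1 and KO 2 stood well above, while KO 3 exceeded the highest WT array by 0.02 only. The difference was 0.57 (95% interval -0.03 to 1.17, limma adjusted p = 0.353), 0.83 without KO 3 and 0.34 without KO 1. A further probe set of Cyp7b1 gave 0.55, with KO 3 at 8.88 just below the WT arrays.

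Cyp8b1, the sterol hydroxylase of the cholic acid branch, measured 12.88, 12.77 and 11.71 in KO and 11.18, 12.003 and 12.29 in WT. KO 1 and KO 2 were the highest of the 6 arrays, KO 3 lay among the WT arrays, and the groups overlapped. Its difference was 0.63 (95% interval -0.41 to 1.67, limma adjusted p = 0.507), 1.00 without KO 3, 0.41 without KO 1 and 0.31 without WT 1. Cyp27a1, the mitochondrial enzyme that opens the alternative route, measured 13.55, 13.50 and 13.45 in KO against 13.41, 13.53 and 13.58 in WT. Its groups overlapped fully, and the 95% interval of its difference, -0.18 to 0.17, was among the narrowest.

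**Figure D2:**
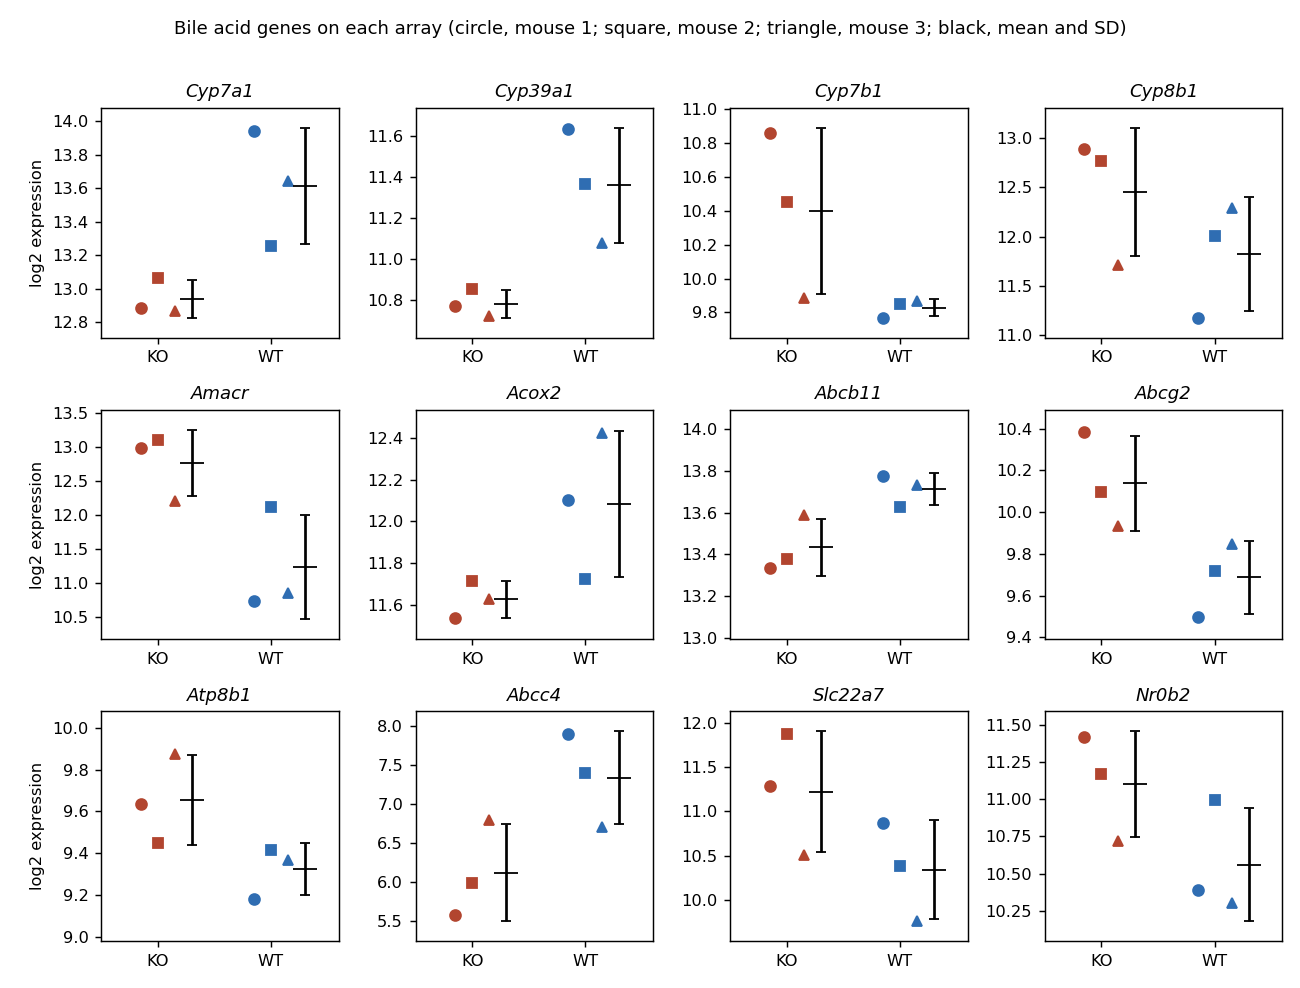
Log2 expression of 12 bile acid genes on each array, KO left and WT right, with a circle, square and triangle for mouse 1, 2 and 3 and the group mean and SD (n = 3) in black; the vertical axis of each panel starts above 0. In Cyp7a1 and Cyp39a1 all KO points lie below the WT points, while in Cyp7b1, Cyp8b1 and Nr0b2 the KO 3 triangle lies at or near the WT points.

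Among the enzymes that modify the ring and side chain, Amacr stood out. Amacr encodes alpha-methylacyl-CoA racemase, which turns the side chain of bile acid intermediates into the form that peroxisomes can shorten. It measured 12.99, 13.11 and 12.21 in KO, against 10.74, 12.12 and 10.85 in WT. Every KO array was above every WT array, but KO 3 and WT 2 were only 0.09 apart. The difference was 1.53 (95% interval 0.44 to 2.63), a 2.897-fold higher mean signal in KO, and it did not pass (limma adjusted p = 0.267). It was 1.98 without WT 2, the array with muscle transcripts, 1.81 without KO 3 and 1.28 without WT 1.

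Acox2, the peroxisomal oxidase that acts after AMACR, went in the opposite direction. It measured 11.54, 11.71 and 11.63 in KO and 12.10, 11.72 and 12.42 in WT. The KO arrays were below all WT arrays, with KO 2 and WT 2 0.01 apart. Its difference was -0.46 (95% interval -0.91 to -0.01, limma adjusted p = 0.343), and ran from -0.64 without WT 2 to -0.29 without WT 3. Scp2, which encodes the thiolase of the last peroxisomal step and a sterol carrier protein, measured 15.53, 15.51 and 15.54 in KO against 15.40, 15.47 and 15.43 in WT. Its groups did not overlap although they differed by only 0.09. The 3 further probe sets of Scp2 were all higher in KO, by 0.78, 0.27 and 0.12.

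The remaining enzymes of this stage showed little difference. Hsd3b7, the dehydrogenase after the first hydroxylation, differed by -0.01, and Akr1d1, the reductase of the steroid ring, by 0.11. Slc27a2, an acyl-CoA synthetase, differed by 0.11. For the conjugation enzymes the values were -0.03 for Slc27a5 and -0.11 for Baat. All 5 had overlapping groups, and the 95% intervals of Hsd3b7, Slc27a2, Slc27a5 and Baat stayed between -0.29 and 0.35. A second probe set of Akr1d1, at -0.03, and one of Baat, at 0.04, had the opposite sign to the one used. These were the 2 disagreements among the 10 further probe sets that passed the filter.

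Of the canalicular transporters, the bile salt export pump was lower in KO and a few others were higher. Abcb11, the pump itself, measured 13.34, 13.38 and 13.59 in KO against 13.77, 13.63 and 13.73 in WT. KO 3 came within 0.04 of the lowest WT array, and the groups did not overlap. The difference was -0.28 (95% interval -0.51 to -0.05), which leaves 82.5% of the WT signal (limma adjusted p = 0.299), and it was -0.36 without KO 3 and -0.23 without KO 1. This is the gene whose upstream region is printed above with the relaxed FXR repeat.

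Abcg2, an exporter of urate, drugs and sulphated steroids, measured 10.38, 10.10 and 9.93 in KO and 9.50, 9.72 and 9.85 in WT. All KO arrays were above all WT arrays, and KO 1 was the highest, as for Cyp7b1. The difference was 0.45 (95% interval 0.08 to 0.82, limma adjusted p = 0.298). Atp8b1, the phospholipid flippase whose human gene is mutated in a familial cholestasis, measured 9.64, 9.45 and 9.88 in KO, against 9.18, 9.42 and 9.37 in WT. Its difference was 0.33 (95% interval 0.01 to 0.66, limma adjusted p = 0.342), with KO 3 the highest array and KO 2 only 0.03 above WT 2. Without KO 3 it was 0.22.

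The other canalicular genes had overlapping groups. Abcc2, the exporter of conjugated bilirubin and sulphated or glucuronidated bile acids, measured 12.20, 12.03 and 12.31 in KO and 12.23, 12.02 and 11.75 in WT. Its probe set, like the one used for Baat, is of the kind that can match several transcripts. Abcb4, the phosphatidylcholine flippase of bile, differed by -0.10 (95% interval -0.35 to 0.15). Abcb1a, a drug exporter, differed by -0.17 and turned to 0.26 without WT 1, where it was 8.48 against 7.05 to 7.68 on the other arrays.

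Abcg5 and Abcg8 encode the subunits of 1 sterol exporter, and their starts lie either side of the 109 bases printed above. Abcg5 measured 11.92, 12.09 and 11.79 in KO against 12.02, 11.85 and 11.55 in WT. Abcg8 measured 10.81, 10.94 and 10.72 in KO against 11.10, 10.66 and 10.45 in WT. Both genes had KO 2, WT 1 and KO 1 as their 3 highest arrays and WT 3 as the lowest. Neither separated the groups, with differences of 0.12 and 0.09 that turned negative (-0.0026 for Abcg5 and -0.05 for Abcg8) without WT 3.

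At the sinusoidal membrane the main uptake carrier had nearly equal means in the groups, while the exporter Abcc4 was lower in the KO mean. Slc10a1, the sodium-dependent taurocholate carrier NTCP, measured 14.61, 14.87 and 14.65 in KO and 14.68, 14.67 and 14.67 in WT. The WT arrays agreed within 0.013, and the KO arrays lay on both sides of them. The 95% interval of the difference was -0.17 to 0.25. Slc22a7, the organic anion transporter OAT2, measured 11.29, 11.87 and 10.51 in KO against 10.87, 10.39 and 9.76 in WT. KO 1 and KO 2 were the highest, KO 3 lay among the WT arrays, and the difference was 0.88 (95% interval -0.18 to 1.95, limma adjusted p = 0.394). It was 1.24 without KO 3, 0.56 without KO 2 and 0.59 without WT 3.

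Abcc4, an exporter of bile acids and cyclic nucleotides known to increase in cholestasis, had the largest negative difference of the 31 genes. It measured 5.58, 5.98 and 6.80 in KO, against 7.90, 7.40 and 6.71 in WT. KO 3 lay 0.09 above WT 3, so the groups overlapped, while KO 1 and KO 2 were the lowest arrays. The difference was -1.21 (95% interval -2.25 to -0.18), or 43.1% of the WT signal (limma adjusted p = 0.304). It was -1.55 without KO 3 and -1.53 without WT 3, but -0.934 without WT 1 and -0.945 without KO 1.

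Abcc3, the basolateral exporter of glucuronides, measured 11.54, 11.31 and 11.37 in KO and 11.66, 11.24 and 11.48 in WT, and its groups overlapped. Slc51b, the beta subunit of the basolateral bile acid exporter OST, measured 4.38, 5.19 and 4.44 in KO against 4.83, 4.59 and 4.50 in WT. These values are close to the level of 4 used as a floor, and KO 2 alone stood above the others. Abcc6, a transporter that releases ATP from hepatocytes, differed by -0.15 and changed sign to 0.12 without KO 1, which at 10.58 was its lowest array.

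The control genes showed a mixed picture. Nr1h4, the bile acid receptor FXR, measured 11.46, 11.52 and 11.50 in KO and 11.39, 11.27 and 11.45 in WT. Its KO arrays were all higher, although the difference was only 0.13 (95% interval -0.05 to 0.30, limma adjusted p = 0.438). Nr0b2, the FXR target and repressor SHP, measured 11.42, 11.17 and 10.72 in KO, against 10.39, 10.996 and 10.30 in WT. WT 2 lay between KO 2 and KO 3, so the groups overlapped, and the difference was 0.54 (95% interval -0.09 to 1.17, limma adjusted p = 0.386). The mean differences of the FXR targets Nr0b2 and Abcb11 had opposite signs. Neither gene was called, and the interval of Nr0b2 included 0, so no split between FXR targets is shown.

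Fgfr4, the hepatocyte receptor for FGF15, measured 9.31, 9.17 and 9.50 in KO and 9.21, 9.17 and 9.55 in WT, with overlapping groups and a difference of 0.02. A dimmer probe set of Fgfr4 differed by 0.44. Klb, its partner beta-Klotho, measured 9.65, 9.89 and 10.11 in KO against 10.33, 10.17 and 9.99 in WT. KO 3 was above WT 3, and the difference was -0.28 (95% interval -0.65 to 0.08, limma adjusted p = 0.412). Without KO 1 it was -0.165.

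The KO arrays did not contribute equally. KO 3 was the KO array nearest to the WT mean for 15 of the 31 genes (48.4%). KO 2 was nearest for 12 (38.7%) and KO 1 for 4 (12.9%). Over all genes tested the shares were 40.5% for KO 3, 29.6% for KO 2 and 29.9% for KO 1. Of genes differing by at least 0.2 either way, KO 3 was nearest for Cyp7b1, Cyp8b1, Amacr, Slc22a7, Abcc4, Nr0b2, Abcb11, Abcg2 and Klb. KO 1 and KO 2, both further from the WT mean there, also had the high Saa1 values of 15.83 and 15.78. KO 3 was also nearest for Slc27a2, Slc10a1, Abcg5, Abcg8, Abcc6 and Slc51b, whose differences were smaller. Both sets belong to the 15 genes above and are not a further result. For Cyp7a1, Cyp39a1, Acox2 and Atp8b1 KO 3 was not the nearest: Cyp7a1 was 12.87 on KO 3 and 12.89 on KO 1, and Atp8b1 was highest on KO 3. Whether the Saa1 values bear on the first set was not tested. With KO 3 left out the smallest adjusted p among the 31 genes was 0.0840, for Cyp7b1, and 0 genes passed.

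**Figure D3:**
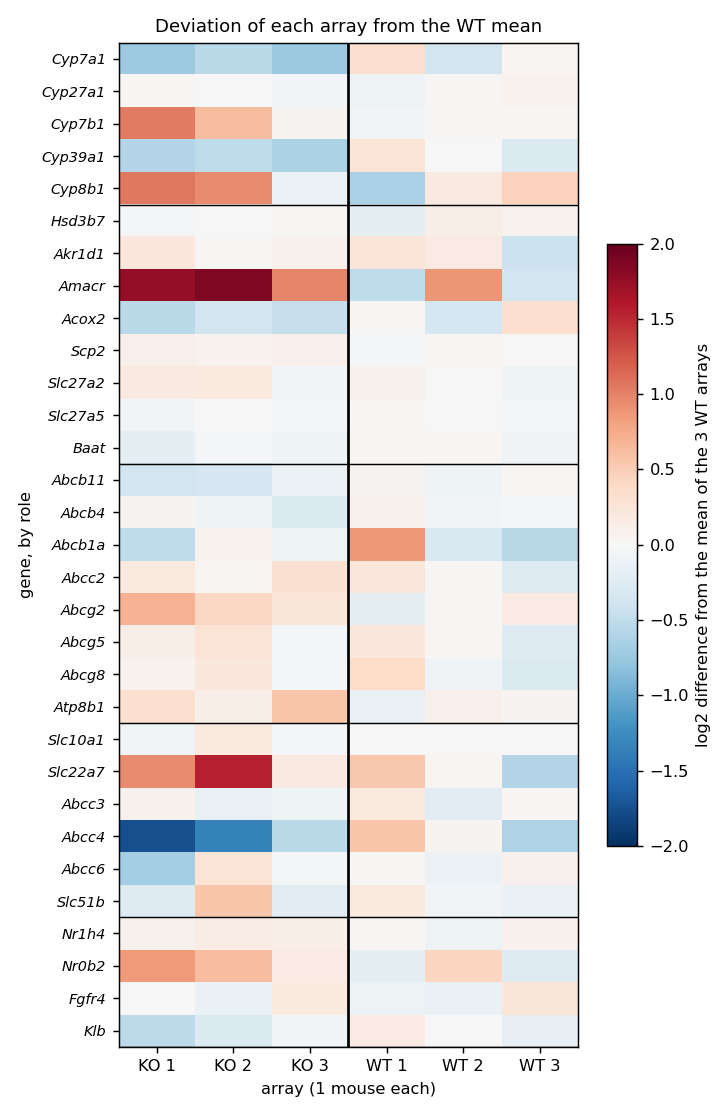
Deviation of each of the 6 arrays (columns, KO left and WT right) from the mean of the 3 WT arrays (log2, colour) for the 31 bile acid genes in order of role. KO 1 and KO 2 are strongly coloured for Cyp7b1, Cyp8b1, Amacr, Slc22a7, Abcc4 and Nr0b2, where KO 3 is paler, while Cyp7a1 and Cyp39a1 are blue on all 3 KO arrays.

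All 13 genes with a difference of at least 0.2 in size kept their sign with any 1 array left out, though their sizes moved. They were picked by the size of these same differences, so a kept sign adds little support for their directions. Amacr ran from 1.28 without WT 1 to 1.98 without WT 2, and Cyp7a1 ran from -0.85 without WT 2 to -0.51 without WT 1. Of the 18 genes under 0.2 in size, 11 changed sign at least once and the rest kept it.

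**Figure D4:**
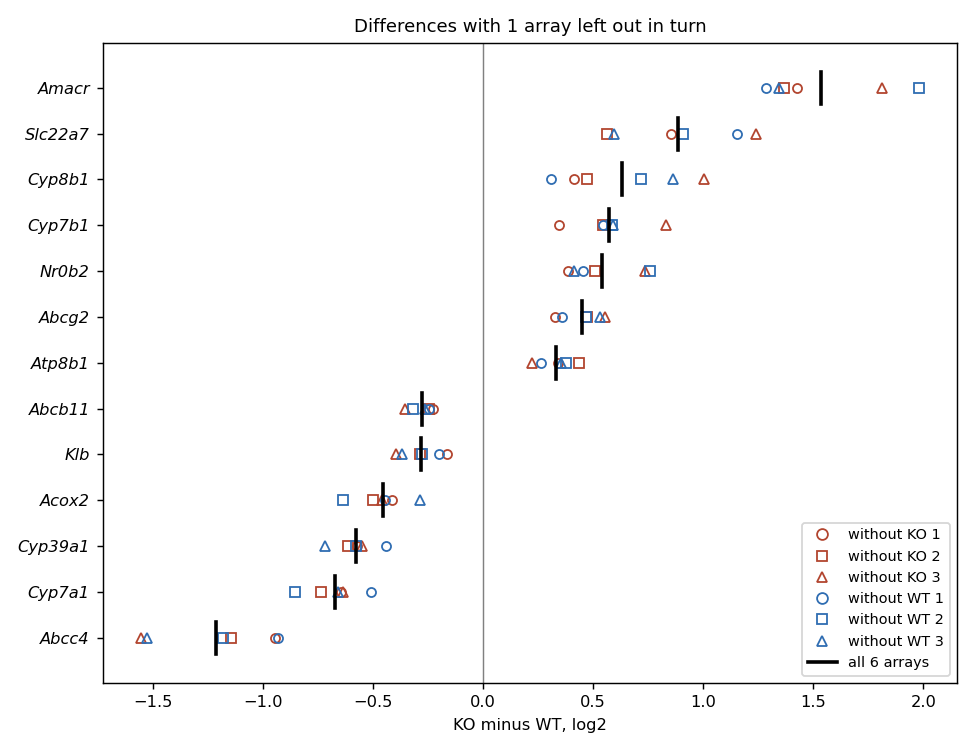
Difference between KO and WT (log2, KO minus WT) for the 13 bile acid genes with a difference of at least 0.2 in size, with all 6 arrays (black bar) and with each array left out in turn (open symbols, red for KO and blue for WT arrays). No symbol crosses 0, and those without KO 3 lie further from 0 than the black bar for Cyp7b1, Cyp8b1, Slc22a7 and Abcc4.

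A further list of 55 genes of bile acid handling gave 43 that could be tested: side-chain enzymes, other uptake carriers, trafficking proteins of the canaliculus and transcription factors. In limma 0 of the 43 was called, 4 had an unadjusted p under 0.05, and 7 (16.3%) had groups that did not overlap, against 20.5% of all genes. Slco1a1, a sinusoidal organic anion carrier, had the largest difference. It measured 12.32, 11.65 and 12.33 in KO, against 2.29, 2.29 and 7.53 in WT (difference 8.06, limma adjusted p = 0.167), and it was called without WT 3 (adjusted p = 0.00270 in limma). The WT values of 2.29 lie near the lowest value in the table, so this size is not a measured fold.

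Foxa2, a liver transcription factor that acts on bile acid transporters, measured 9.54, 9.58 and 8.79 in KO and 9.99, 9.76 and 10.19 in WT. All KO arrays were lower, by 0.67 in the mean (limma adjusted p = 0.318). Abcd3, the peroxisomal carrier of bile acid intermediates, differed by -0.22 (limma adjusted p = 0.287), and Abcc1, a drug exporter near the floor, by -0.41 (limma adjusted p = 0.304). Both were lower on every KO array. The median difference of the 43 genes was -0.01, with 20 higher, 22 lower and 1, Ezr, tied. Ezr read the same 6.18 on every array, so its probe set gives no information on a difference.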

How the data were processed

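RNA from the livers of 3 KO and 3 WT mice was hybridised to 1 array per mouse. The authors deposited log2 expression levels for each probe set. The submitters' processing notes name R 2.9.1 and GCRMA 2.16.0, a method that corrects background by probe sequence, normalises across arrays and summarises probe sets. Further settings are not given in the sources used. That the scale is log2 was read from the range of values (2.185 to 16.327), of which 28.9% lay at the lowest value. Background correction can enlarge differences of genes near that value. Detection calls, scan dates and slides were not analysed here, and the number of arrays limits the precision.

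Of 45101 probe sets, 64 were manufacturer controls, and 34945 others named 1 gene symbol (18193 genes). Each gene was represented by its brightest probe set, by the mean of the 6 arrays. The filtered 10009 genes were fitted with lmFit and eBayes in limma 3.58.1 (R 4.3.3), two-sided and without covariates, with Benjamini-Hochberg adjustment over all of them and a threshold of 0.05. The 95% intervals come from this fit. On simulated arrays with known changes the fit called 30% of 1.5-fold, 72% of 2-fold and 90% of 4-fold changes, with 6 false calls. The changed genes were drawn at random, with independent noise at each gene's own spread. Over all genes the median SD was 0.14 in KO and 0.12 in WT. The shares called do not hold for genes with more spread, such as Amacr (SD 0.49 in KO and 0.77 in WT). Smaller changes, and changes in genes with more spread, can therefore be missed. The coverage of the intervals was not checked. Marker signals were summed on the linear scale and expressed as log2. Motifs were searched on both strands of the 250 bases before each annotated start, with all 14 patterns listed in the text. Figures were drawn with matplotlib 3.10.9.

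The 31 genes, the further list and the marker lists were chosen with earlier results of these data known. All 31 are reported. Values of every array are given for genes whose groups did not overlap, for 14 central genes, and for Slc22a7, Abcg5 and Abcg8, which were added after their values were seen. From the further list, genes are named where called, where groups did not overlap with a difference of at least 0.5, or for the 4 smallest p. Alternatives varied the filter, the normalisation, low values, the choice of probe set, array weights, the variance model, a replicate block and the arrays included.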

Additional observations from a re-analysis of the deposited data

How the results depend on the processing

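Under each of the 17 alternatives 0 of the 31 bile acid genes was called in limma. Their differences kept direction and side of the threshold in 500 of 526 cases, and 19 genes kept their direction under every alternative. Changing only the filter, the low values, the variance model or the replicate block, or testing every probe set, left the differences as they were. Those settings could not reverse a direction, and the 26 reversals came from the others. The side of the threshold never changed, since 0 of the 31 was called in any setting. With median centring the difference was 0.062 for Cyp27a1, 0.058 for Hsd3b7, 0.036 for Slc27a5 and 0.017 for Abcc3, and with array weights it was 0.0089 for Cyp27a1, all on the other side of 0. Without KO 3 and WT 2 together it was 0.033 for Cyp27a1, 0.039 for Hsd3b7 and -0.14 for Fgfr4. In that setting Amacr differed by 2.26 (limma adjusted p = 0.0600) and was not called. This was the smallest adjusted p of the 31 genes in any setting. With 1 array left out in turn, differences that changed sign ran from -0.053 to 0.032 for Cyp27a1, -0.10 to 0.052 for Hsd3b7, -0.10 to 0.24 for Akr1d1, -0.45 to 0.26 for Abcb1a, -0.0026 to 0.23 for Abcg5, -0.055 to 0.27 for Abcg8, -0.041 to 0.086 for Slc10a1, -0.16 to 0.049 for Abcc3, -0.35 to 0.12 for Abcc6, -0.23 to 0.17 for Slc51b and -0.071 to 0.13 for Fgfr4. The median of the 31 differences was 0.095 with median centring, and ran from -0.0026 to 0.079 with 1 array left out. KO and WT mice share replicate numbers, but the deviations of same-numbered arrays from their group means correlated at -0.09, -0.08 and -0.14 over genes, and 0 of 6 arrays correlated best with their own number, so the numbers were not taken to pair the mice. With the replicate block 0 genes of 10009 and 0 of the 31 were called. The number of genes called in all was 3 with no filter, 10 with a filter at 6, 3 without KO 3 and WT 2 together, and 1 to 140 with 1 array left out. In the further list it was 0 to 1, Slco1a1 without WT 3. The causes were not tested. With 3 arrays per group, 23 of the 31 differences have 95% intervals within 2-fold either way, and 16 within 1.5-fold.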

Other observations

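A few transcripts of the further list stood out on 1 array, and they were chosen after their values were seen. Cyp46a1, the cholesterol hydroxylase known from neurons, measured 7.56 on KO 1, while KO 2 and KO 3 were at 2.69 and 2.23 and the WT arrays at 2.19 to 2.23. It did not reach 4 on 3 arrays and was not tested. Slc10a2, the bile acid carrier of ileum and bile ducts, measured 3.99, 7.14 and 3.47 in KO, against 2.19, 4.07 and 4.004 in WT, so that KO 2 alone was well above the floor. Of the other 4 intestinal markers, Fgf15, Vil1 and Lct were at the lowest value of 2.185 on all arrays, while Fabp2, a fatty acid binding protein known from the enterocyte, measured 11.87, 11.58 and 11.11 in KO and 11.50, 11.43 and 11.50 in WT. Aqp8, a water channel of the canaliculus, measured 11.33, 11.25 and 12.55 in KO and 12.16, 12.22 and 12.62 in WT. KO 1 and KO 2 were the lowest arrays for Aqp8, and KO 3 lay among the WT arrays (difference -0.62, limma adjusted p = 0.469).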
